A study of Mus musculus with 12 samples.

Results

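The 9 genes described here encode the calcium-activated phosphatase calcineurin, its inhibitor calcipressin and the NFAT transcription factors that calcineurin acts on. They were picked by gene name from the 24346 symbols measured, at a time when earlier results of these data were known. Ppp3ca, Ppp3cb and Ppp3cc encode the catalytic subunits and Ppp3r1 the regulatory subunit. Rcan1 encodes calcipressin, Nfatc1, Nfatc2 and Nfatc3 encode calcium-regulated NFAT factors, and Nfat5 encodes a relative that responds to tonicity.

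Calcineurin is a serine/threonine phosphatase that is switched on when calcium rises inside the cell. It removes phosphates from NFAT proteins in the cytoplasm, which then enter the nucleus and bind DNA, often beside AP-1 factors. Kinases such as GSK3, CK1 and DYRK put the phosphates back and the factors leave the nucleus. In B cells the antigen receptor opens this route through calcium release and entry, whereas LPS acts mainly through TLR4 and NF-κB. NFAT5 lacks the calcineurin docking site of the other family members.

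RNA was sequenced from mouse marginal zone B cells, the B cells that sit at the edge of the splenic follicle and respond early to blood-borne microbes. Cells of Trpm5-/- and wild-type mice were kept in culture for 4 h in 3 conditions: without stimulus, with 10 µg/mL LPS, or with 10 µg/mL of an antibody against IgM, which crosslinks the antigen receptor. Trpm5 encodes a cation channel that opens when calcium rises inside the cell. Each of the 6 groups (Trpm5-/- and wild type in each condition) held 2 libraries, 12 in all. The sources used here do not give the strain and age of the mice or the deleted stretch of Trpm5. Nothing in the labels ties the libraries of a group to separate animals or cultures, so p-values measure only library-to-library spread, which may be technical. In such bulk RNA, fewer cells of a type and less RNA per cell cannot be told apart.

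Levels are taken as FPKM, fragments counted on a gene, scaled by its transcript length in kilobases and by the size of that library. The values may also have been scaled between libraries before deposit. Levels are scaled for transcript length, so those of different genes can be set side by side. FPKM summed to between 563461 and 805373 per library, with the highest sums under LPS, and 12737 to 13483 symbols were above 0. Depth relative to wild-type unstimulated replicate 1 was 0.645 to 1.06, and the sources used here give no total read numbers. Trpm5 itself was at 0 to 0.0303 FPKM in the Trpm5-/- libraries and at 0.0196 to 0.434 FPKM in wild type, too low in both to check the labels. All 6 pan-B and all 6 marginal zone B markers reached 1 FPKM in every group. The 6 T cell markers summed to at most 1.38 FPKM, the 3 NK markers to at most 0.128 FPKM, the 6 macrophage markers to between 8.47 and 26.4 FPKM, and the erythroid markers to between 37.5 and 454 FPKM.

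Promoter sequences are shown for 3 of the genes, because Rcan1 is a textbook NFAT target with alternative first exons, and because Ppp3cb and Nfatc2 moved in opposite directions under LPS. RefSeq windows of the GRCm38.p6 build, from 250 bases before to 50 bases after an annotated start, were held for 6 of the 9 members, 9 windows in all. Each window was searched on both strands for the NFAT core GGAAA, the AP-1 site TGANTCA and the cAMP response element TGACGTCA, and matches are in capitals. GGAAA also contains the GGAA read by ETS factors. All 4 sequences are minus-strand genes read 5′ to 3′. The first Rcan1 start lies at chr16:92466120-92466419 and the second at chr16:92400029-92400328. The Ppp3cb window is chr14:20546524-20546823 and the first Nfatc2 window is chr2:168601608-168601907.
Rcan1, first start: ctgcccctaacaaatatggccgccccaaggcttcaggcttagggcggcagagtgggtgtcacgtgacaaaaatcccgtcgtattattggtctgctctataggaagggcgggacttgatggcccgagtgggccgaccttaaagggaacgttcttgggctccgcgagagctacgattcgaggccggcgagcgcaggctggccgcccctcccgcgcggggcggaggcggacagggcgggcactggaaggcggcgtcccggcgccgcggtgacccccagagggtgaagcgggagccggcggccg
Rcan1, second start: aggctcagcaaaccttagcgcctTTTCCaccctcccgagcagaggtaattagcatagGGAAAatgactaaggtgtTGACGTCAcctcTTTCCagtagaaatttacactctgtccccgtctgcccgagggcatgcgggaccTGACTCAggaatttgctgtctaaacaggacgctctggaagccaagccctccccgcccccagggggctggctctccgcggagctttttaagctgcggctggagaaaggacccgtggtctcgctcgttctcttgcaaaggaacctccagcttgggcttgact
Ppp3cb: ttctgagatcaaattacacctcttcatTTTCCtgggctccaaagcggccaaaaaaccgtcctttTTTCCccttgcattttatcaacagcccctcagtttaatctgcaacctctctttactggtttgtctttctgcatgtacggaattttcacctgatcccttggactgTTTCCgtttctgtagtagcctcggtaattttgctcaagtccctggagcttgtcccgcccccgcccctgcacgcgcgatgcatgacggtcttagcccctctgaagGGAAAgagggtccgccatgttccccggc
Nfatc2, first start: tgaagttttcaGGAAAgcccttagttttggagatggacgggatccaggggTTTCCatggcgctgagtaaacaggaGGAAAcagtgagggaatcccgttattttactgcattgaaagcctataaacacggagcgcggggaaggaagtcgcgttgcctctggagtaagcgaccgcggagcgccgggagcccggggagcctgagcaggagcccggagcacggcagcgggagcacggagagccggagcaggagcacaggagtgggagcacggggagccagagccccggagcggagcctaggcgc

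The second Rcan1 window held 3 NFAT cores, at -227, -193 and -163 from the start, with the cAMP response element at -175 between them and the AP-1 site at -110. The first Rcan1 window held none of the 3 motifs. The Ppp3cb window held 4 NFAT cores, the first Nfatc2 window 3 and the second Nfatc2 window, not shown, 1. Of the other windows not shown, that of Nfat5 held 2, those of Nfatc3 1 and 0, and that of Ppp3r1 0. Of 32851 mouse promoter windows of the same length, 61.3% held at least 1 NFAT core, 9.42% at least 3 and 2.65% at least 4, while 7.81% held an AP-1 site and 1.79% a cAMP response element. The files give 1 value per gene symbol, so the Rcan1 starts cannot be separated in the expression values below. A match is a description of the letters in the window and does not show that a factor binds there.

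Averaged over the 12 libraries, Nfatc1 had the highest level of the 9, at 122 FPKM, followed by Ppp3r1 at 83.5 FPKM, Nfatc3 at 61.8 FPKM, Ppp3cc at 39.8 FPKM and Ppp3ca at 31.4 FPKM. Rcan1 averaged 13.2 FPKM, Ppp3cb 9.37 FPKM, Nfat5 3.0 FPKM and Nfatc2 2.03 FPKM. All 9 passed the filter of at least 1 FPKM in at least 2 libraries, as did 10797 genes in all. Differences below are on the log2(FPKM + 1) scale, with the standard error of the limma model after ±, and a gene is called where its p, adjusted by Benjamini and Hochberg over all 10797 genes, is under 0.05. The +1 makes the differences of Nfatc2 and Nfat5 smaller than their ratios.

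**Figure D1:**
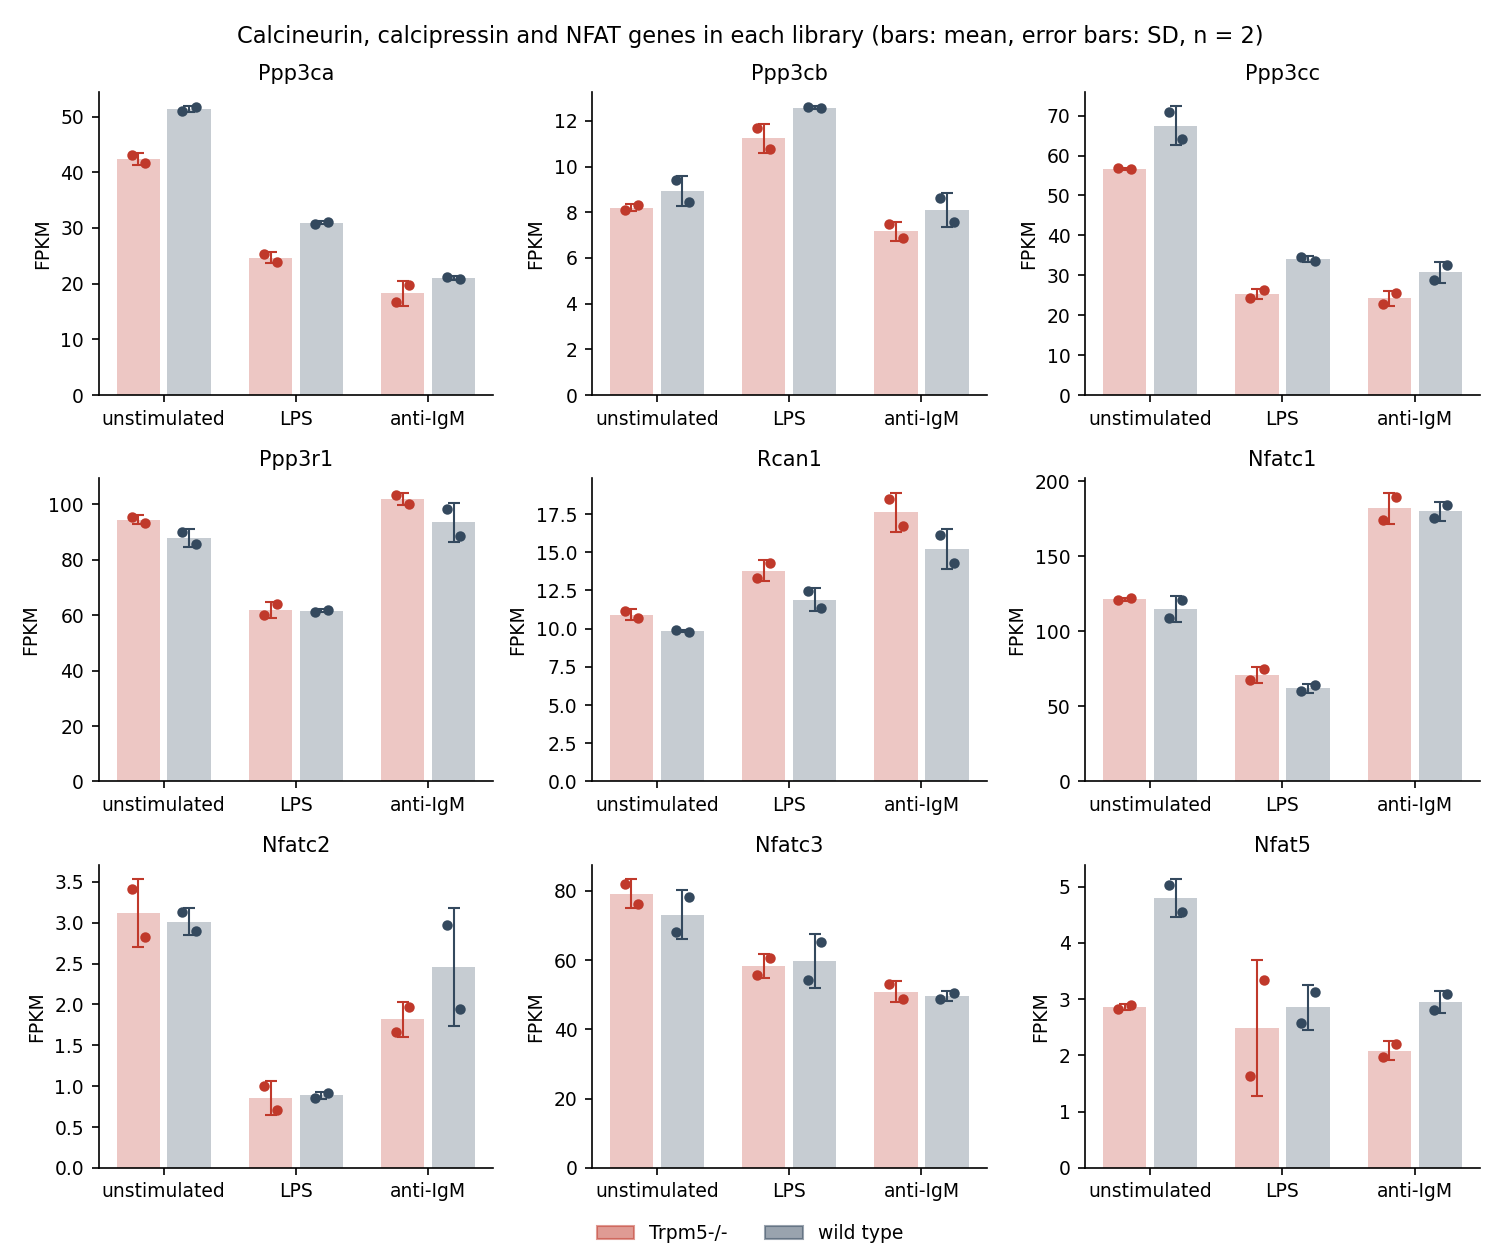
FPKM of the 9 members in each library (points), with group means (bars) and SD of 2 libraries (error bars), Trpm5-/- in red to the left of wild type in grey within each condition. Ppp3ca and Ppp3cc are highest without stimulus, Nfatc1 and Rcan1 are highest under anti-IgM, and Ppp3cb is highest under LPS.

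Both main catalytic genes fell after either stimulus. Ppp3ca, the calcineurin A alpha subunit, was at 43.1 and 41.6 FPKM in unstimulated Trpm5-/- libraries, against 51.0 and 51.7 FPKM in unstimulated wild-type libraries. Under LPS it was at 25.4 and 24.0 FPKM in Trpm5-/- libraries, against 30.8 and 31.1 FPKM in wild type. Under anti-IgM the values were 16.7 and 19.8 FPKM in Trpm5-/- libraries, against 21.2 and 20.8 FPKM in wild type. No stimulated library of either genotype reached the unstimulated range of its genotype. The LPS change was -0.76 ± 0.08 in Trpm5-/- cells (adjusted p = 1.36e-05) and -0.71 ± 0.08 in wild type (adjusted p = 2.16e-05). The anti-IgM change was larger in size, at -1.17 ± 0.08 in Trpm5-/- cells (adjusted p = 1.33e-06) and -1.25 ± 0.08 in wild type (adjusted p = 7.72e-07).

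Ppp3cc, the calcineurin A gamma subunit, had the highest level of the catalytic genes in all 12 libraries but 1, Trpm5-/- LPS replicate 1. Without stimulus it was at 56.9 and 56.5 FPKM in Trpm5-/- libraries, against 70.9 and 64.1 FPKM in wild type. The LPS libraries held 24.4 and 26.3 FPKM in Trpm5-/- cells, against 34.7 and 33.6 FPKM in wild type, and the anti-IgM libraries 22.9 and 25.5 FPKM in Trpm5-/- cells, against 28.8 and 32.6 FPKM in wild type. Its LPS change was -1.13 ± 0.09 in Trpm5-/- cells (adjusted p = 8.29e-07) and -0.96 ± 0.09 in wild type (adjusted p = 2.92e-06). Its anti-IgM change was -1.20 ± 0.09 in Trpm5-/- cells (adjusted p = 1.56e-06) and -1.11 ± 0.09 in wild type (adjusted p = 2.5e-06). An antisense gene, Gm49417, overlaps 3.05% of the exonic bases of Ppp3cc, and the sources used here do not say whether the counting used strand.

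Ppp3cb, the calcineurin A beta subunit, went against the other catalytic genes under LPS. It was at 11.7 and 10.8 FPKM in LPS-treated Trpm5-/- libraries, against 8.09 and 8.30 FPKM in unstimulated ones, a change of 0.41 ± 0.11 (adjusted p = 0.00651). Wild-type libraries held 12.6 and 12.5 FPKM under LPS, against 9.41 and 8.45 FPKM without stimulus, a change of 0.45 ± 0.11 (adjusted p = 0.00364). Scaling every library to the same FPKM sum (TPM) ended both calls, leaving changes of 0.04 in Trpm5-/- cells and 0.10 in wild type. Under anti-IgM, Ppp3cb was at 7.47 and 6.88 FPKM in Trpm5-/- libraries and at 8.62 and 7.56 FPKM in wild type, and neither difference from unstimulated cells was called.

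That rescaling matters for every LPS value, because LPS libraries have the largest FPKM sums. TPM scaling moved the median LPS change of all 10797 genes to -0.36 in Trpm5-/- cells and -0.35 in wild type, against -0.02 in both on the FPKM scale. For anti-IgM it moved the median to -0.17 in Trpm5-/- cells and -0.09 in wild type. On the FPKM scale Ppp3cb lay above the median LPS change, and Ppp3ca and Ppp3cc lay below it. TPM scaling multiplies a whole library by a single factor, so it moves a member and the median by nearly the same amount. The same order on the TPM scale is therefore no separate check.

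Ppp3r1, the calcineurin B regulatory subunit that every catalytic subunit needs, split the stimuli. Its LPS libraries held 59.9 and 63.9 FPKM in Trpm5-/- cells, against 95.5 and 93.3 FPKM without stimulus, a change of -0.60 ± 0.06 (adjusted p = 1.12e-05). Those of wild type held 61.2 and 61.9 FPKM under LPS, against 90.0 and 85.6 FPKM, a change of -0.51 ± 0.06 (adjusted p = 4.19e-05). With anti-IgM it was at 103 and 100 FPKM in Trpm5-/- libraries and at 98.4 and 88.5 FPKM in wild type, and was not called in either genotype. The Wdr92 gene on the same strand shares 14.3% of the exonic bases of Ppp3r1, so part of its value is uncertain.

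Set over Ppp3r1 in the same library, the summed FPKM of the 3 catalytic genes was lower in Trpm5-/- than in wild-type libraries in each condition. The ratio was 1.13 and 1.14 in Trpm5-/- libraries without stimulus, against 1.46 and 1.45 in wild type. Under LPS it was 1.03 and 0.956 in Trpm5-/- libraries, against 1.28 and 1.25 in wild type. With anti-IgM it was 0.455 and 0.521 in Trpm5-/- libraries, against 0.596 and 0.689 in wild type. The ratios were formed after the values were seen and are given as a description without a test. They do not depend on the scaling of a library, but they carry the Wdr92 overlap of Ppp3r1.

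The make-up of the catalytic sum changed as well. Ppp3cb was 7.48% and 7.80% of it in unstimulated Trpm5-/- libraries, against 7.16% and 6.81% in wild type. Under LPS its share was 19% and 17.7% in Trpm5-/- libraries, against 16.2% in both wild-type libraries. Under anti-IgM it was 15.9% and 13.2% in Trpm5-/- libraries, against 14.7% and 12.4% in wild type. The share was thus higher in all 8 stimulated libraries than in the 4 unstimulated ones, and the genotypes overlapped under anti-IgM.

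**Figure D2:**
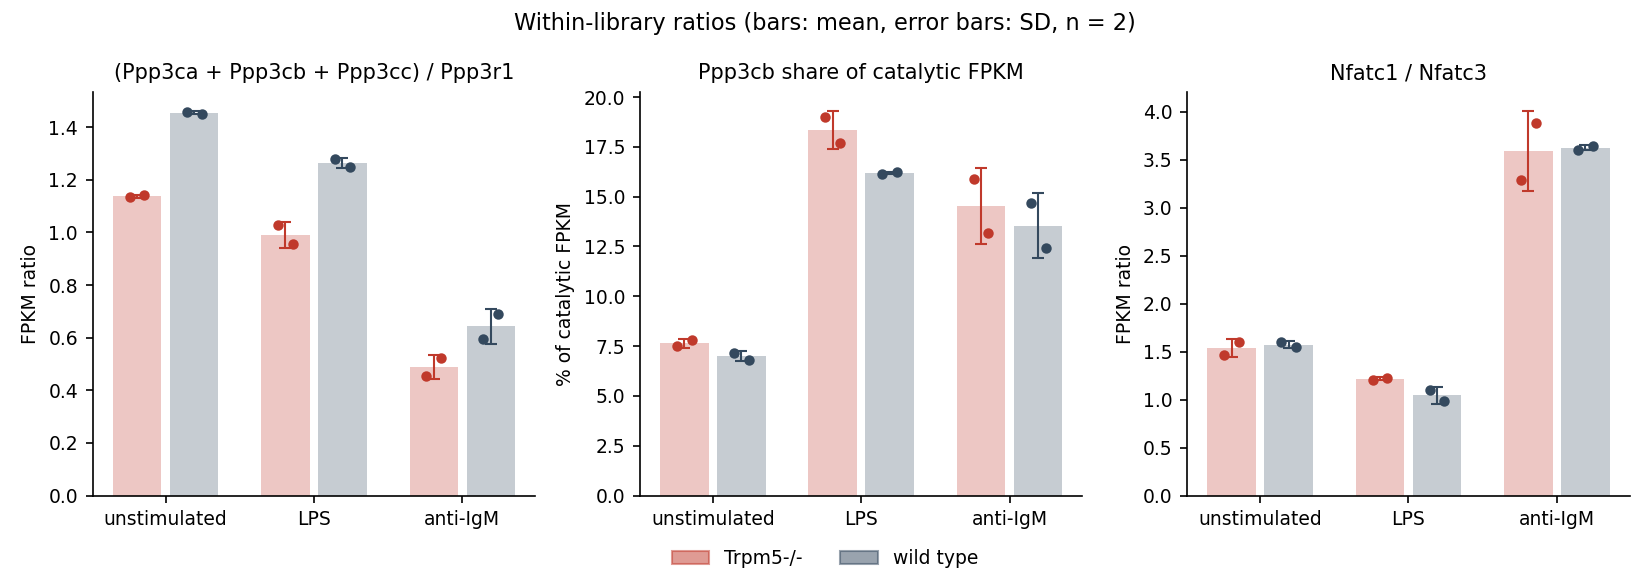
Ratios within each library (points), with group means (bars) and SD of 2 libraries (error bars), Trpm5-/- in red to the left of wild type in grey. Left, summed catalytic FPKM over Ppp3r1, 0.455 to 1.14 in Trpm5-/- and 0.596 to 1.46 in wild-type libraries; middle, Ppp3cb as a percentage of catalytic FPKM; right, Nfatc1 over Nfatc3, which is at least 3.29 in the 4 anti-IgM libraries and at most 1.60 in the other 8.

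Rcan1, whose product binds and inhibits calcineurin and whose second promoter is a classical NFAT target, rose most under anti-IgM. It was at 18.5 and 16.7 FPKM in anti-IgM-treated Trpm5-/- libraries, against 11.2 and 10.7 FPKM without stimulus, a change of 0.64 ± 0.10 (adjusted p = 0.000414). In wild type it was at 16.1 and 14.3 FPKM under anti-IgM, against 9.89 and 9.81 FPKM, a change of 0.58 ± 0.10 (adjusted p = 0.000856). Both rises were called under all 12 alternatives tried. Under LPS, Rcan1 was at 13.3 and 14.3 FPKM in Trpm5-/- libraries and at 12.5 and 11.4 FPKM in wild type, between the unstimulated and anti-IgM libraries of each genotype.

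The LPS change of Rcan1 was 0.31 ± 0.10 in Trpm5-/- cells (adjusted p = 0.0185) and 0.25 ± 0.10 in wild type (adjusted p = 0.0478), and it turned to -0.07 and -0.11 with TPM scaling. In Trpm5-/- cells the call ended without unstimulated replicate 2 (adjusted p = 0.0833) or LPS replicate 2 (adjusted p = 0.0946). In wild type it ended without any 1 of the 4 compared libraries (adjusted p = 0.0543 to 0.217).

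Nfatc1, the NFAT factor with the highest level in these cells and one that can drive its own short isoform, moved in opposite directions under the 2 stimuli. In unstimulated libraries it was at 121 and 122 FPKM in Trpm5-/- cells, against 109 and 121 FPKM in wild type. Under anti-IgM it was at 174 and 189 FPKM in Trpm5-/- libraries, against 175 and 184 FPKM in wild type. The LPS libraries held 67.3 and 74.5 FPKM in Trpm5-/- cells, against 59.9 and 64.1 FPKM in wild type. Every anti-IgM library lay above, and every LPS library below, all 4 unstimulated libraries. The anti-IgM rise was 0.58 ± 0.07 in Trpm5-/- cells (adjusted p = 0.000106) and 0.64 ± 0.07 in wild type (adjusted p = 4.88e-05). The LPS fall was -0.77 ± 0.07 in Trpm5-/- cells (adjusted p = 5.79e-06) and -0.88 ± 0.07 in wild type (adjusted p = 2.01e-06). All 4 calls held under all 12 alternatives.

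Nfatc2, which encodes NFAT1, was low throughout. Its LPS libraries held 1.0 and 0.710 FPKM in Trpm5-/- cells, against 3.41 and 2.82 FPKM without stimulus, a change of -1.15 ± 0.18 (adjusted p = 0.000236). The wild-type libraries held 0.861 and 0.920 FPKM under LPS, against 3.13 and 2.89 FPKM, a change of -1.09 ± 0.18 (adjusted p = 0.000349). As ratios of group means, the LPS level was 0.275 of the unstimulated level in Trpm5-/- cells and 0.295 in wild type, the lowest ratios of any member under LPS. Under anti-IgM it was at 1.67 and 1.97 FPKM in Trpm5-/- libraries, a change of -0.55 ± 0.18 (adjusted p = 0.0297). That call ended without Trpm5-/- unstimulated replicate 1 (adjusted p = 0.152), anti-IgM replicate 1 (adjusted p = 0.136) or anti-IgM replicate 2 (adjusted p = 0.0574). In wild type the anti-IgM values of 2.97 and 1.94 FPKM overlapped the unstimulated ones.

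Nfatc3, which encodes NFAT4, fell under both stimuli. Without stimulus it was at 82.1 and 76.2 FPKM in Trpm5-/- libraries, against 68.1 and 78.2 FPKM in wild type. Under LPS it was at 55.7 and 60.7 FPKM in Trpm5-/- libraries, against 54.3 and 65.3 FPKM in wild type, and under anti-IgM at 53.0 and 48.7 FPKM in Trpm5-/- libraries, against 48.6 and 50.6 FPKM in wild type. The anti-IgM change was -0.63 ± 0.10 in Trpm5-/- cells (adjusted p = 0.00043) and -0.55 ± 0.10 in wild type (adjusted p = 0.00108). The LPS change was -0.44 ± 0.10 in Trpm5-/- cells (adjusted p = 0.00263) and -0.29 ± 0.10 in wild type (adjusted p = 0.024). The wild-type LPS call ended without unstimulated replicate 2 (adjusted p = 0.174) or LPS replicate 1 (adjusted p = 0.209). The opposite-strand gene Esrp2 overlaps 1.87% of the exonic bases of Nfatc3.

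Because Nfatc1 and Nfatc3 parted under anti-IgM, their ratio within a library separated that stimulus from the other conditions. Nfatc1 over Nfatc3 was 1.47 and 1.60 in unstimulated Trpm5-/- libraries, against 1.60 and 1.55 in wild type. Under LPS it was 1.21 and 1.23 in Trpm5-/- libraries, against 1.10 and 0.982 in wild type. Under anti-IgM it was 3.29 and 3.88 in Trpm5-/- libraries, against 3.6 and 3.64 in wild type. The summed FPKM of the 3 calcium-regulated factors was 206 and 201 in unstimulated Trpm5-/- libraries, against 180 and 202 in wild type. The LPS sums were 124 and 136 in Trpm5-/- libraries, against 115 and 130 in wild type, and the anti-IgM sums 229 and 240, against 227 and 237. Nfatc4, the remaining calcium-regulated family member, was listed at 0 in all 12 libraries.

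Nfat5, the tonicity-responsive factor that controls osmolyte transporters and chaperones, was low and its libraries disagreed most. It was at 2.82 and 2.90 FPKM in unstimulated Trpm5-/- libraries, against 5.03 and 4.56 FPKM in wild type. Under LPS the Trpm5-/- libraries lay far apart, at 1.63 and 3.34 FPKM, against 2.57 and 3.13 FPKM in wild type. Under anti-IgM it was at 1.96 and 2.2 FPKM in Trpm5-/- libraries, against 2.81 and 3.09 FPKM in wild type. Only the LPS change in wild type was called, at -0.59 ± 0.21 (adjusted p = 0.0295). It ended without wild-type unstimulated replicate 1 (adjusted p = 0.118), unstimulated replicate 2 (adjusted p = 0.0628) or LPS replicate 1 (adjusted p = 0.141), and with quantile normalization (adjusted p = 0.583).

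Counted over the 9 members, 8 were called in the LPS response of Trpm5-/- cells, 2 higher and 6 lower, where 68.7% of all tested genes were called. In wild type all 9 were called, 2 higher and 7 lower, where 69.4% of all tested genes were called. The median LPS change of the 9 was -0.60 in Trpm5-/- cells and -0.59 in wild type, and that of all tested genes was -0.02 in both. In the anti-IgM response 6 members were called in Trpm5-/- cells, 2 higher and 4 lower, against 49.9% of all tested genes. In wild type 5 were called, 2 higher and 3 lower, against 48.6% of all tested genes. The medians were -0.32 for the members and -0.00 for all genes in Trpm5-/- cells, and -0.23 for the members and 0.02 for all genes in wild type. The shares called are near those of all genes in each anti-IgM comparison, and both genotypes' responses to a stimulus were fitted with one estimate of the spread.

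**Figure D3:**
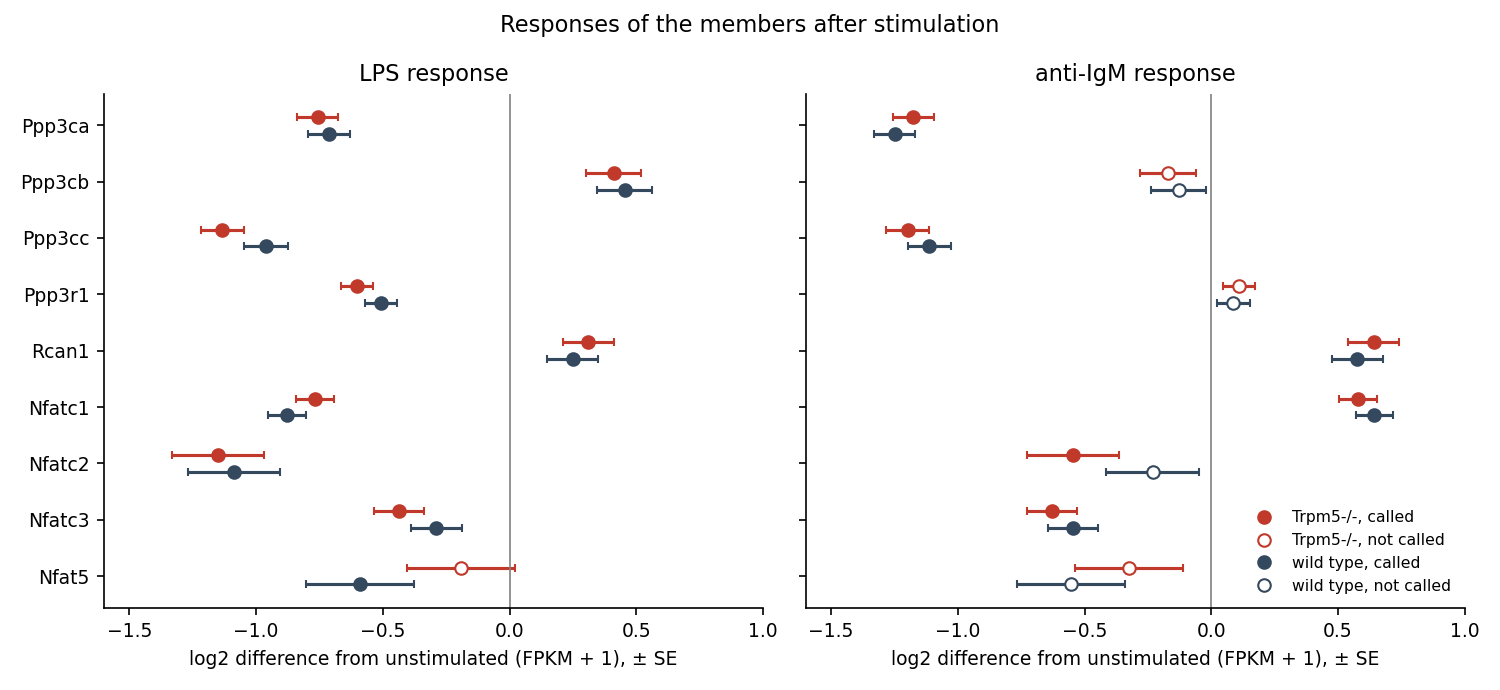
Change of each member after LPS (left) and anti-IgM (right) on the log2(FPKM + 1) scale, with the standard error of the model, Trpm5-/- in red above wild type in grey; filled points are called at adjusted p under 0.05. Nfatc1 is below 0 under LPS and above 0 under anti-IgM, and the small LPS rises of Rcan1 turn to -0.07 (Trpm5-/-) and -0.11 (wild type) with TPM scaling.

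Set directly against each other, LPS and anti-IgM gave different levels of 6 members in Trpm5-/- cells, 2 higher and 4 lower under LPS, where 51.9% of all tested genes were called. In wild type 7 members differed, 3 higher and 4 lower, where 52.7% were called. Nfatc1 showed the widest gap, at -1.35 ± 0.07 in Trpm5-/- cells (adjusted p = 2.55e-07) and -1.52 ± 0.07 in wild type (adjusted p = 1.13e-07). Ppp3r1 was lower under LPS, with differences of -0.71 ± 0.06 in Trpm5-/- cells and -0.59 ± 0.06 in wild type. So was Nfatc2, with -0.60 ± 0.18 in Trpm5-/- cells and -0.85 ± 0.18 in wild type (adjusted p at most 0.0181 for these 4 values). Rcan1 was also lower under LPS, at -0.33 ± 0.10 in both genotypes (adjusted p = 0.0187 in Trpm5-/- cells and 0.0194 in wild type). Ppp3cb was higher under LPS, by 0.58 ± 0.11 in both genotypes (adjusted p = 0.00122 in each).

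Ppp3ca was higher under LPS by 0.42 ± 0.08 in Trpm5-/- cells (adjusted p = 0.00167), which TPM scaling brought to 0.21 (adjusted p = 0.0875), and by 0.54 ± 0.08 in wild type (adjusted p = 0.000321). For Nfatc2 in Trpm5-/- cells the call ended without LPS replicate 2 (adjusted p = 0.104) or anti-IgM replicate 2 (adjusted p = 0.0954). For Rcan1 it ended in Trpm5-/- cells without LPS replicate 1 (adjusted p = 0.0962) or anti-IgM replicate 1 (adjusted p = 0.122), and in wild type without LPS replicate 2 (adjusted p = 0.115) or anti-IgM replicate 1 (adjusted p = 0.135). Nfatc3 was higher under LPS in wild type by 0.26 ± 0.10 (adjusted p = 0.0499), a call that ended without LPS replicate 2 (adjusted p = 0.355) or without either anti-IgM replicate (adjusted p = 0.177 and 0.0987) and turned to -0.01 with TPM scaling.

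In the fit described, the members called between the genotypes were catalytic genes. Ppp3ca, Ppp3cb and Ppp3cc were lower in both Trpm5-/- libraries than in both wild-type libraries in each of the 3 conditions, as were 4.51% of all tested genes. In single conditions such a separation was common, at 21.4% of all tested genes without stimulus, 19.3% under LPS and 25.8% under anti-IgM. Averaged over the conditions, the difference was -0.33 ± 0.05 for Ppp3cc (adjusted p = 0.00167) and -0.26 ± 0.05 for Ppp3ca (adjusted p = 0.00453). Thus 2 of the 9 members were called, both lower, where 16.0% of all tested genes were called. Both calls held under all 19 alternatives, with adjusted p of at most 0.00674 for Ppp3cc and 0.0156 for Ppp3ca. For Ppp3cb it was -0.14 ± 0.06, which was not called (adjusted p = 0.174).

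Within single conditions the same genes mostly missed the threshold. Under LPS, Ppp3cc was lower in Trpm5-/- cells, at 0.742 of the wild-type mean, a difference of -0.42 ± 0.09 (adjusted p = 0.0263). It was the 1 member called there, where 3.59% of all tested genes were called. The call ended when any 1 of the 4 LPS libraries was left out, with an adjusted p of 0.146 and 0.0641 for Trpm5-/- replicates 1 and 2 and of 0.138 and 0.11 for wild-type replicates 1 and 2. Under LPS the difference of Ppp3ca was -0.32 ± 0.08 (adjusted p = 0.0663). Without stimulus limma called 0 of the 9, with 3 at an unadjusted p under 0.05, where 6.11% of all tested genes were called, and the difference of Ppp3ca was -0.27 ± 0.08 (adjusted p = 0.088). Under anti-IgM it called 0 of the 9, with 2 at an unadjusted p under 0.05, where 3.83% were called, and the difference of Ppp3cc was -0.33 ± 0.09 (adjusted p = 0.0651).

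Rcan1 went the other way, with both Trpm5-/- libraries above both wild-type libraries in each condition, as were 7.47% of all tested genes. Its averaged difference was 0.18 ± 0.06 and was not called (adjusted p = 0.0644). With the limma fit limited to genes with a mean of at least 5 FPKM, it was called (adjusted p = 0.0471). Nfat5 was lower in both Trpm5-/- libraries without stimulus and under anti-IgM and overlapped under LPS, with an averaged difference of -0.38 ± 0.12 (adjusted p = 0.0655). Over 18 alternatives that difference ranged from -0.50, without Trpm5-/- LPS replicate 2, to -0.26. Nfatc1, Nfatc2 and Nfatc3 were called in none of the 4 genotype comparisons.

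The summed FPKM of the 6 pan-B markers moved the same way as Ppp3ca and Ppp3cc. It was 5131 and 5142 in unstimulated Trpm5-/- libraries, against 5618 and 5374 in wild type. Under LPS it was 2813 and 2751 in Trpm5-/- libraries, against 3375 and 3434 in wild type, and under anti-IgM 1663 and 1632, against 1907 and 1895. The 6 marginal zone B markers did not move together. In each condition 4 of them had both Trpm5-/- libraries above both wild-type ones, and under LPS and under anti-IgM the other 2 had both below. Such separation was common among all tested genes. Without stimulus, under LPS and under anti-IgM, 28.1%, 26.5% and 25.8% of them lay above in this way. In the same order, 21.4%, 19.3% and 25.8% lay below. Cd9 was at 458 and 421 FPKM under LPS in Trpm5-/- libraries, against 241 and 250 FPKM in wild type, whereas Cr2 was at 70.3 and 75.1 FPKM, against 86.4 and 87.4 FPKM. The 6 macrophage or monocyte markers summed to 15.6 and 17.3 FPKM in unstimulated Trpm5-/- libraries, against 26.4 and 19 FPKM in wild type. Their sum was 13.1 and 14.0 FPKM under LPS, against 10.5 and 8.96 FPKM, and 11.9 and 15 FPKM under anti-IgM, against 9.34 and 8.47 FPKM. Of the 6, Lyz2 alone had both Trpm5-/- libraries above wild type under either stimulus, and 2 under LPS and 3 under anti-IgM had both below. The shares of all tested genes given above apply here too. Erythroid markers (3 of the 4 listed were in the files) summed under anti-IgM to 190 and 37.5 FPKM in Trpm5-/- libraries, against 372 and 365 FPKM in wild type, and overlapped without stimulus and under LPS. The part of these markers in the genotype differences was not tested.

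No member's response to a stimulus was shown to differ between the genotypes. The interaction of genotype with LPS was called by limma for 0 of 9 members, 0 at an unadjusted p under 0.05, where 0.102% of all tested genes were called. For anti-IgM it was also 0 of 9, and 0 unadjusted, where 0.0278% were called. These tests had 2 libraries per group, and a p above the threshold does not show that the responses were equal.

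**Figure D4:**
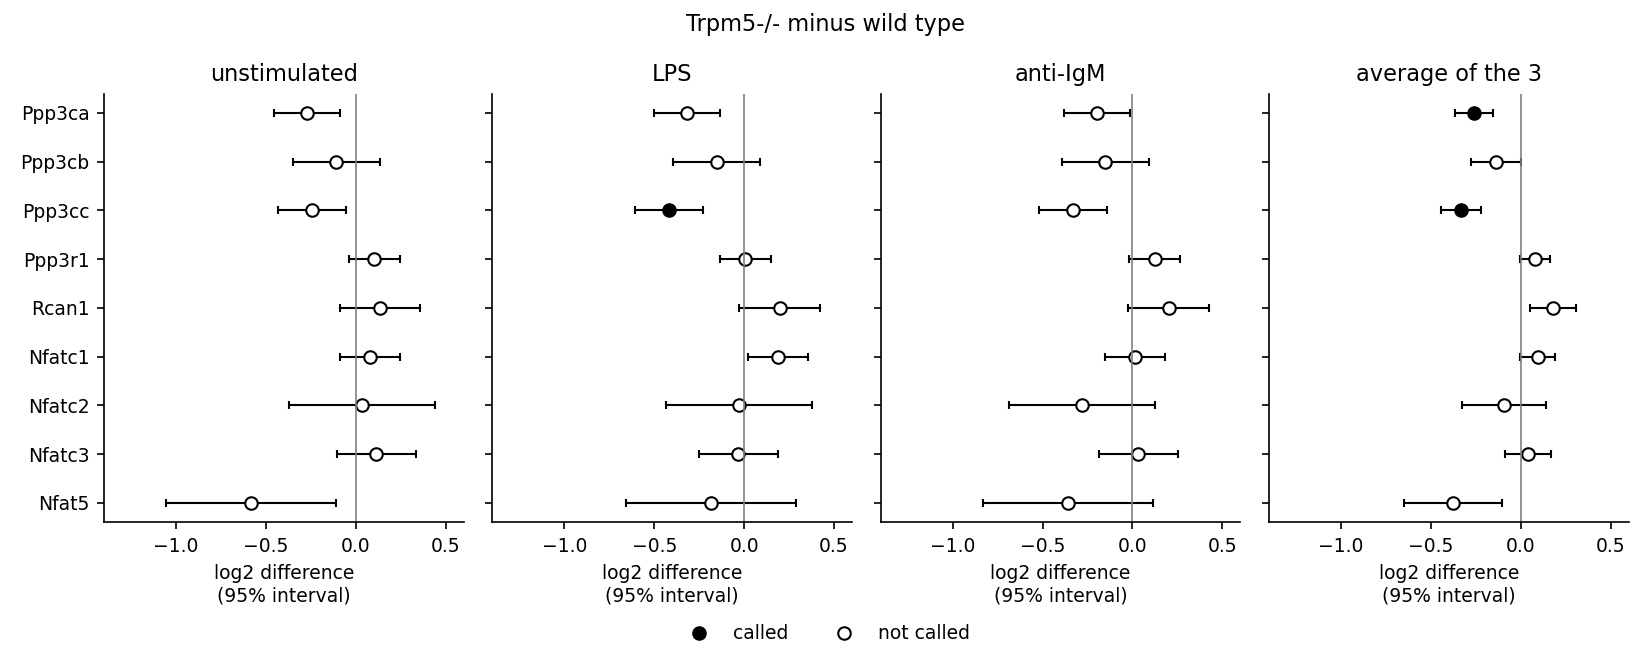
Trpm5-/- minus wild type for each member without stimulus, under LPS, under anti-IgM and averaged over the 3, on the log2(FPKM + 1) scale with 95% intervals; filled points are called at adjusted p under 0.05. Ppp3ca and Ppp3cc lie below 0 in every panel and are called in the average, and Ppp3cc also under LPS.

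Among 14 other regulators of calcineurin, 10 passed the filter, and 8 were called in the LPS response of Trpm5-/- cells (2 higher, 6 lower) and 9 in wild type (2 higher, 7 lower), where 68.7% and 69.4% of all tested genes were called. Under anti-IgM 6 were called in Trpm5-/- cells (2 higher, 4 lower) and 8 in wild type (2 higher, 6 lower), where 49.9% and 48.6% were called. Fkbp1a, the FKBP12 protein through which tacrolimus blocks calcineurin, rose under LPS to 358 and 335 FPKM in Trpm5-/- libraries, against 133 in both unstimulated ones. Wild-type libraries held 304 and 313 FPKM under LPS, against 126 and 106 FPKM. Its changes were 1.37 ± 0.08 in Trpm5-/- cells and 1.41 ± 0.08 in wild type under LPS, and 0.85 ± 0.08 and 0.86 ± 0.08 under anti-IgM.

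Chp1, a calcineurin B homologue that inhibits the phosphatase, fell under both stimuli. Its change under LPS was -1.15 ± 0.07 in Trpm5-/- cells and -0.97 ± 0.07 in wild type, and under anti-IgM -0.90 ± 0.07 and -0.85 ± 0.07. These Fkbp1a and Chp1 calls had adjusted p of at most 1.09e-05. Ppp3r2 and Rcan2, the other regulatory subunit and a second calcipressin, were at most 0.213 and 0.113 FPKM. Between the genotypes 1 of the 10 was called in the average, where 16.0% of all tested genes were called. It was Fkbp1a, at 0.19 ± 0.05 (adjusted p = 0.0194), a call that ended without any of 4 libraries: LPS replicate 1 of either genotype, Trpm5-/- anti-IgM replicate 1 or wild-type anti-IgM replicate 2 (adjusted p = 0.052 to 0.0575).

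Of 18 genes for kinases that rephosphorylate NFAT, scaffolds and nuclear transport, 15 passed the filter. Under LPS 14 were called in Trpm5-/- cells (8 higher, 6 lower) and 13 in wild type (8 higher, 5 lower), and under anti-IgM 6 (4 higher, 2 lower) and 7 (4 higher, 3 lower). Of all tested genes 68.7% and 69.4% were called under LPS and 49.9% and 48.6% under anti-IgM. The anti-IgM shares of this list were 40% in Trpm5-/- cells and 46.7% in wild type, the second near that of all genes. Lrrk2, a kinase reported to hold NFAT in the cytoplasm with the noncoding RNA NRON, fell furthest. It was at 1.57 and 2.38 FPKM in LPS-treated Trpm5-/- libraries, against 22.6 and 22.1 FPKM without stimulus, and at 2.09 and 1.52 FPKM in wild type, against 29.1 and 28.5 FPKM. The LPS changes were -2.99 ± 0.16 in Trpm5-/- cells and -3.41 ± 0.16 in wild type, and the anti-IgM changes -1.86 ± 0.16 and -1.99 ± 0.16 (adjusted p at most 5.23e-06). Cse1l, a nuclear export receptor that recycles importin alpha, rose under LPS by 1.17 ± 0.08 in Trpm5-/- cells and 1.18 ± 0.08 in wild type (adjusted p at most 5.12e-07).

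Of 22 textbook targets of NFAT, 15 passed the filter. Pdcd1 passed it through its anti-IgM libraries alone and is left out of the anti-IgM counts. Of the other 14, 13 were called higher under anti-IgM in Trpm5-/- cells and 12 in wild type, and 0 lower, where 49.9% and 48.6% of all tested genes were called in either direction. The other 7 (Il2, Il3, Il4, Csf2, Fasl, Cd40lg and Ptgs2) stayed low, with Il3 listed at 0 throughout. The median anti-IgM change of the 14 was 1.52 in Trpm5-/- cells and 1.46 in wild type, beside -0.00 and 0.02 for all tested genes.

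Egr2, a zinc finger factor that restrains lymphocyte activation, was at 169 and 157 FPKM in anti-IgM-treated Trpm5-/- libraries, against 26.5 and 23.6 FPKM without stimulus. In wild type it was at 156 and 170 FPKM under anti-IgM, against 23.2 and 25.1 FPKM. The changes were 2.66 ± 0.11 (adjusted p = 8.05e-08) and 2.70 ± 0.11 (adjusted p = 6.54e-08). Its relative Egr3 rose by 1.91 ± 0.16 and 1.38 ± 0.16, and the orphan receptors Nr4a1, Nr4a2 and Nr4a3 by 1.64, 2.13 and 1.55 in Trpm5-/- cells and by 1.32, 1.80 and 1.61 in wild type. Cd5, a brake on antigen receptor signalling, was at 5.62 and 4.51 FPKM in anti-IgM-treated Trpm5-/- libraries, against 1.54 and 1.20 FPKM without stimulus, and at 4.96 and 5.73 FPKM in wild type, against 0.483 and 1.79 FPKM. Among the anti-IgM calls in Trpm5-/- cells, that of Tnf ended without unstimulated replicate 2, anti-IgM replicate 1 or anti-IgM replicate 2 (adjusted p = 0.0529 to 0.159), and that of Ifng without unstimulated replicate 1 (adjusted p = 0.145) or anti-IgM replicate 1 (adjusted p = 0.1). In wild type the call of Tnf ended without unstimulated replicate 2, where its change was 0.64.

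Under LPS the same list split, with 8 higher and 5 lower in Trpm5-/- cells and 8 higher and 4 lower in wild type, where 68.7% and 69.4% of all tested genes were called. Egr2 was at 8.85 and 10.1 FPKM in LPS-treated Trpm5-/- libraries and at 10.3 and 8.14 FPKM in wild type, changes of -1.31 ± 0.11 and -1.30 ± 0.11 (adjusted p at most 2.19e-06). Nr4a2 changed by -0.79 ± 0.15 in Trpm5-/- cells and -0.80 ± 0.15 in wild type, and Egr3 by -0.63 ± 0.16 and -1.10 ± 0.16. Quantile normalization ended the call of Egr3 in Trpm5-/- cells (adjusted p = 0.286) and of Nr4a2 in wild type (adjusted p = 0.0555). Il2ra, the interleukin 2 receptor alpha chain, rose by 3.96 ± 0.09 and 4.10 ± 0.09, Myc by 2.87 ± 0.05 and 3.04 ± 0.05, and Irf4, needed for plasma cell formation, by 2.24 ± 0.06 and 2.52 ± 0.06. These last genes are also known targets of NF-κB or other factors, so their place in the list does not make them readouts of NFAT alone.

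**Figure D5:**
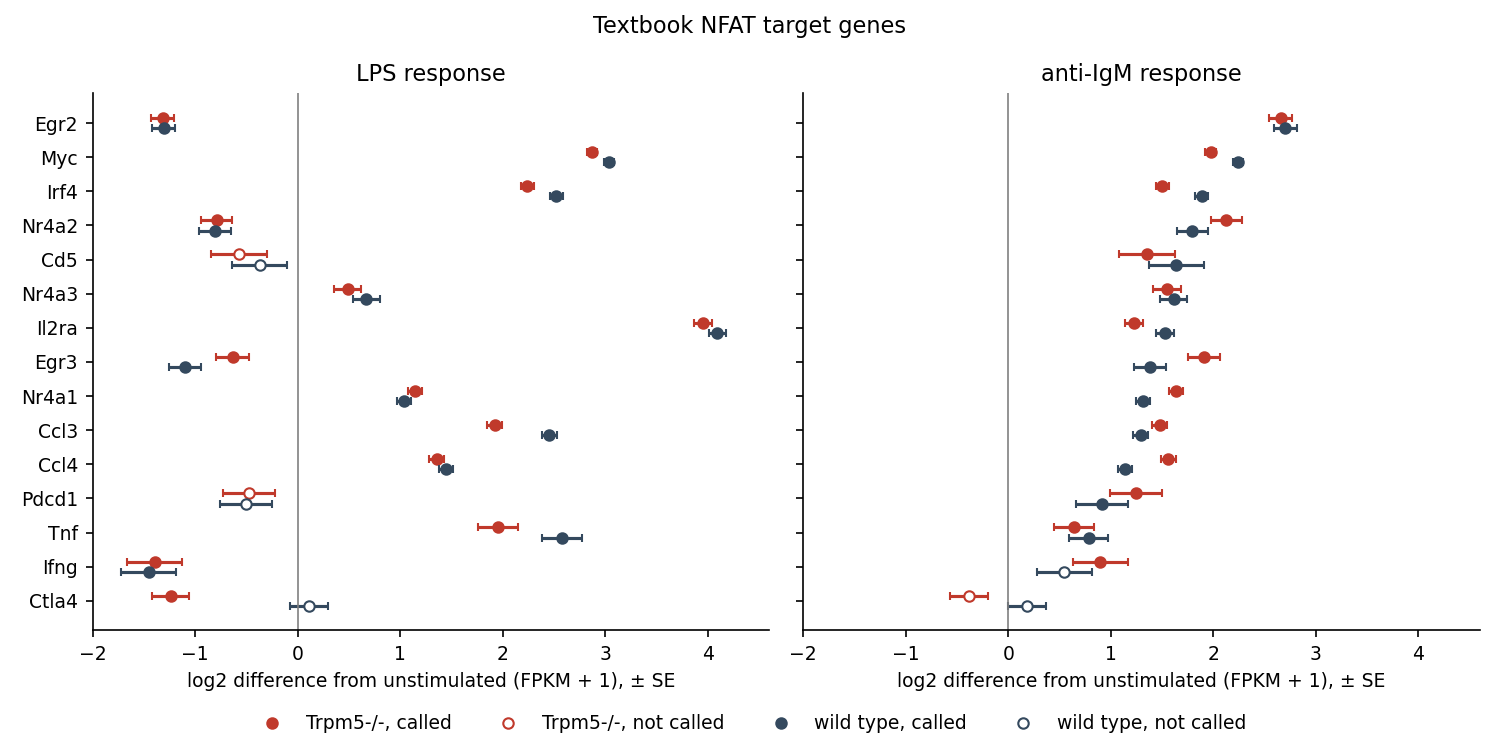
Change of the 15 NFAT target genes that passed the filter after LPS (left) and anti-IgM (right), on the log2(FPKM + 1) scale with the standard error, Trpm5-/- in red above wild type in grey; filled points are called. All called points lie above 0 under anti-IgM, and Pdcd1 passed the filter through its anti-IgM libraries alone. Under LPS the called points of Egr2, Egr3, Nr4a2 and Ifng lie below 0 in both genotypes, and that of Ctla4 in Trpm5-/- cells.

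Between the genotypes the chemokine genes Ccl3 and Ccl4 were the targets called in every condition. Ccl4 was at 690 and 660 FPKM in anti-IgM-treated Trpm5-/- libraries, against 332 and 326 FPKM in wild type, a difference of 1.04 ± 0.07 (adjusted p = 7.3e-05). Ccl3 was at 145 and 134 FPKM there, against 65.4 and 65.2 FPKM in wild type, a difference of 1.08 ± 0.07. Without stimulus Ccl3 and Ccl4 differed by 0.90 ± 0.07 and 0.61 ± 0.07, and under LPS by 0.36 ± 0.07 and 0.52 ± 0.07. With only the compared libraries in the limma fit, the call of Ccl4 ended without stimulus (adjusted p = 0.0691) and under LPS (adjusted p = 0.0823). The LPS call of Ccl3 (adjusted p = 0.0234) ended without any 1 of the 4 compared libraries (adjusted p = 0.0814 to 0.133). Irf4 and Myc were also higher in unstimulated Trpm5-/- cells, by 0.43 ± 0.06 (adjusted p = 0.00621) and 0.30 ± 0.05 (adjusted p = 0.0119). The call of Irf4 ended without Trpm5-/- unstimulated replicate 1 (adjusted p = 0.0538), and that of Myc without either Trpm5-/- unstimulated replicate or wild-type unstimulated replicate 1 (adjusted p = 0.0661 to 0.0672). In all, 4 of the 15 were called higher without stimulus, 2 higher and 1 lower under LPS, and 2 higher under anti-IgM, where 6.11%, 3.59% and 3.83% of all tested genes were called. The 1 lower gene was Ctla4, at 0.570 and 1.25 FPKM in Trpm5-/- libraries, against 2.59 and 2.57 FPKM in wild type (adjusted p = 0.0233), a call that ended without Trpm5-/- LPS replicate 1 (adjusted p = 0.121) or either wild-type LPS replicate (adjusted p = 0.113 and 0.115).

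Of 11 other calcineurin substrates, all of which passed the filter, Mef2c, a transcription factor that calcineurin activates in B cells, was the one that differed most between the genotypes. It was at 17.3 and 15 FPKM in LPS-treated Trpm5-/- libraries, against 24.7 and 28 FPKM in wild type, a difference of -0.67 ± 0.08 (adjusted p = 0.00198), a call that ended with only the compared libraries in the fit (adjusted p = 0.139). Without stimulus the difference was -0.19 ± 0.08 and was not called (adjusted p = 0.218). Under anti-IgM it was at 54.8 and 52.7 FPKM in Trpm5-/- libraries, against 83.6 and 76.4 FPKM in wild type, a difference of -0.56 ± 0.08 (adjusted p = 0.00536). The anti-IgM call ended without Trpm5-/- replicate 2 (adjusted p = 0.0548) or wild-type replicate 1 (adjusted p = 0.0526), while the averaged difference of -0.48 ± 0.05 (adjusted p = 0.000154) was called under every alternative tried. Between the genotypes 0 of the 11 were called without stimulus, 1 under LPS, 2 under anti-IgM and 2 in the average, all lower in Trpm5-/- cells. Of all tested genes 6.11%, 3.59%, 3.83% and 16.0% were called. The other gene was Mef2a, at -0.55 ± 0.09 under anti-IgM (adjusted p = 0.0098) and -0.20 ± 0.05 in the average (adjusted p = 0.0308). Both Mef2a calls ended under some alternatives. Mef2c also fell with either stimulus. The LPS change was -2.47 ± 0.08 in Trpm5-/- cells and -1.99 ± 0.08 in wild type, and the anti-IgM change -0.79 ± 0.08 and -0.42 ± 0.08. Crtc2, a CREB coactivator, rose under LPS by 1.67 ± 0.09 in Trpm5-/- cells and 1.60 ± 0.09 in wild type, and Tfeb, a factor for lysosome genes, fell under both stimuli, with changes of -1.05 to -1.21 over the 4 comparisons. In all, 9 of the 11 were called under LPS in Trpm5-/- cells (5 higher, 4 lower) and 7 in wild type (4 higher, 3 lower), and under anti-IgM 4 (0 higher, 4 lower) and 5 (2 higher, 3 lower). Of all tested genes 68.7% and 69.4% were called under LPS and 49.9% and 48.6% under anti-IgM. The shares of the substrates were 81.8% and 63.6% under LPS and 36.4% and 45.5% under anti-IgM. Their differences from the shares of all genes were not tested.

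Of the 9 tonicity targets of NFAT5, 8 passed the filter. Of these, 4 were called under LPS in Trpm5-/- cells (3 higher, 1 lower) and 7 in wild type (5 higher, 2 lower), and 2 under anti-IgM in each genotype, both higher. The shares of all tested genes called were 68.7% and 69.4% under LPS and 49.9% and 48.6% under anti-IgM. Hspa4l, a chaperone of the HSP110 family, was at 0.763 and 1.02 FPKM in LPS-treated Trpm5-/- libraries, against 6.92 and 6.78 FPKM without stimulus. Wild-type libraries held 0.901 and 0.873 FPKM under LPS, against 5.76 and 6.03 FPKM. The LPS changes were -2.06 ± 0.16 and -1.87 ± 0.16 (adjusted p at most 2.04e-06). Hspa1a, a stress-induced chaperone, was at 10.9 and 9.68 FPKM in LPS-treated Trpm5-/- libraries, against 15.2 and 18.0 FPKM in wild type (adjusted p = 0.0229). It was the 1 of the 8 called between the genotypes under LPS, where 3.59% of all tested genes were called. That call ended without either Trpm5-/- LPS replicate (adjusted p = 0.0588 and 0.122) or wild-type LPS replicate 2 (adjusted p = 0.155).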

How the data were processed

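RNA of 12 libraries was measured. Per the submitters' processing notes, the mm10 build was used with Cufflinks 2.2.1, TopHat2 2.0.13, SAMtools 0.1.19 and Bowtie2 2.2.3; per the labels' protocols, full-length cDNA was made with a SMART-Seq HT kit and tagmented. The authors deposited 1 value per gene symbol and library. These were taken as FPKM from the tool named and from the values, since the deposited files do not name the unit. The sources used here give no annotation, counting or strand setting. The median ratio of a library to the geometric mean of the 12 was 1.01 throughout, although FPKM sums ran from 563461 to 805373. The values may thus have been scaled between libraries before deposit, and this ratio is no separate check of the scaling. No further scaling was applied. Replicate Pearson r across genes was 0.959 to 0.978 and 0 pairs were identical. Exact zeros can be failed estimates.

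Genes reaching 1 FPKM in 2 or more libraries (10797) were tested on the log2(FPKM + 1) scale. One mean per group was fitted over the 12 libraries with limma 3.58.1 (R 4.3.3), using eBayes with its trend option and leaving 6 residual degrees of freedom. It gave 12 comparisons, 2-sided, with Benjamini-Hochberg adjustment over all tested genes. Alternatives were TPM scaling, quantile normalization, a pseudocount of 0.1, no filter, a mean of at least 5 FPKM, no trend, a replicate block, only the compared libraries, and leaving out each library. Lists are described by counts and medians.

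The 9 members and the gene lists were chosen with earlier results of these data known. The text names all members, at most the 3 called genes of smallest p per list and comparison, and for each member up to 3 genes of most similar pattern. Some genes are not reported here. NFAT targets beyond those 3, Ctla4 in wild type, and genes at or near 0 were named after their values were seen. Exon overlaps come from GENCODE M21.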

Additional observations from a re-analysis of the deposited data

How the results depend on the processing

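Of 44 member calls over the 12 comparisons, 31 were kept under every alternative and 13 were lost under at least 1, of which 3 turned sign in at least 1. The number of the 9 members called between genotypes without stimulus was 1 with quantile normalization (0 otherwise in the fit described), and under anti-IgM it was 1 with TPM scaling. Under LPS it was 2 with a mean of at least 5 FPKM, 0 without the mean-variance trend, 0 with only the compared libraries and 0 to 0 over the fits that left out a library, against 1. With TPM scaling the LPS change of Rcan1 turned to -0.0717 in Trpm5-/- cells and -0.109 in wild type, and the LPS against anti-IgM difference turned to -0.00823 for Nfat5 in Trpm5-/- cells and -0.00859 for Nfatc3 in wild type. TPM scaling divides by the FPKM sum, which was highest in the LPS libraries, and the cause of the other changes was not tested. With quantile normalization the LPS change of Nfat5 in Trpm5-/- cells was 0.251, and the LPS against anti-IgM difference of Ccl4 in wild type was -0.0172. Leaving out a library moved the LPS change of Nfat5 in Trpm5-/- cells over -0.551 to 0.168 and its LPS against anti-IgM difference over -0.226 to 0.493. A further 55 member differences were never called, and 24 of them changed sign in at least 1 setting, with a size of at most 0.255. Of 175 pathway gene calls, 39 were lost under at least 1 alternative. The count of all genes called moved by over 1.5 times in the genotype comparisons: 660 without stimulus became 361 without the trend and 51 with only the compared libraries, with 159 to 274 over the left-out libraries; 388 under LPS became 21 with only the compared libraries and 158 to 206 with a library left out; 413 under anti-IgM became 248, 116 and 119 to 156. For the interaction with LPS, 11 became 4 without the trend, 5 with only the compared libraries and 3 to 23 with a library left out, and for anti-IgM 3 became 5 with TPM scaling, 9 without the filter and 5 with only the compared libraries. Deviations of same-numbered libraries correlated weakly between groups (15 correlations, -0.172 to 0.199, 3 above 0.1). The highest was between Trpm5-/- LPS and Trpm5-/- anti-IgM. Such correlations cannot settle whether replicate numbers pair the libraries, because deviations between 2 libraries also hold noise. With the replicate block the interaction with LPS called 6 genes and the anti-IgM response of wild-type cells called 6 members against 5, Nfat5 being added (adjusted p = 0.0457), and no other member call changed. With 2 libraries per group and no read totals, no counting interval is given, and low genes such as Nfatc2 and Nfat5 have the widest errors.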

Other observations

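The genes whose pattern over the 12 libraries was most like each member were ranked by Pearson r of log2(FPKM + 1) among 7589 genes with a mean of at least 5 FPKM. The libraries fall into 3 conditions, so genes that share a response to the stimuli share a high r, and the values are a description without a test. For Nfatc1 they were Ndfip1 (r = 0.991), an adaptor of Nedd4-family ubiquitin ligases, Adam10 (r = 0.990), a protease that cleaves Notch, and Dvl2 (r = 0.990), a Wnt signalling adaptor. For Ppp3ca they were Il10ra (r = 0.991), the interleukin 10 receptor alpha chain, Pde4b (r = 0.987), a cAMP phosphodiesterase, and Neurl3 (r = 0.986). Those named for Ppp3cc are Rasgrp3 (r = 0.987), a Ras activator downstream of the B cell receptor, and Tuba1a (r = 0.984).

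Rcan1 was most like Gng4 (r = 0.976), a G protein gamma subunit, and Ppp3cb most like Fchsd2 (r = 0.974). Ppp3r1 was most like AI413582 and Chpt1 (r = 0.985 each), Nfatc2 most like Bcas3 (r = 0.984) and Nfatc3 most like Fermt3 (r = 0.958), which encodes kindlin-3. Nfat5 had the weakest match of the 9, Kmt2d (r = 0.896), a histone methyltransferase. The matches named differ between the members, and no gene was named for more than 1 of them.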
